A study of Mus musculus with 111 samples.

Results

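The zQ175 effect on astrocytes at 6 months was described from 8 of the 111 array samples of the study, which were chosen by their titles: 4 samples of astrocytes from zQ175 mice aged 6 months (numbers 26 to 29) and 4 from wild-type (WT) mice of that age (numbers 22 to 25). zQ175 mice are a knock-in model of Huntington's disease, in which the mouse's own Htt gene carries an expanded CAG repeat. The labels give no sex and no copy number of the allele. All 8 samples came from the striatum, which was dissected without the subventricular zone. Tissue of littermates was combined by genotype, so a sample is a pool of animals, and p-values measure the spread between pools. The dissociated cells were sorted for the surface glutamate transporter GLT1 and against the microglial protein CD11b (GLT1+/CD11b-). Other groups of the study served only for comparison: zQ175 and WT astrocytes at 12 months (4 and 4 samples), zQ175 and WT cells of 6-month mice that were sorted as microglia for CD11b and without GLT1, or as a negative fraction without either protein (4 and 4 each), and astrocytes of R6/2 and WT mice at 6 weeks (5 and 5) and 12 weeks (6 and 5). R6/2 is a transgenic model that expresses exon 1 of human HTT.

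Astrocytes take up glutamate and potassium around synapses, supply neurons with lactate and lipids, and change their expression in many diseases of the striatum. GLT1, the product of Slc1a2, is their main glutamate transporter. Mutant huntingtin is made in nearly all cells of a knock-in mouse, astrocytes and neurons alike. S100b is a classical astrocyte gene, whereas Uchl1, Dcx and Insm1 are best known from neurons.

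Expression was read as log2 array signal of probe sets, with 1 probe set for each of 18194 genes, of which 12380 were bright enough to be tested. The 8 arrays had medians between 6.285 and 6.4, and Pearson correlations over genes were 0.986 to 0.994 among the zQ175 samples, 0.979 to 0.99 among the WT samples and 0.98 to 0.993 between the genotypes. The 26 astrocyte markers had their highest mean in the cells sorted as astrocytes. They averaged 12.11 ± 0.06 in zQ175 and 12.16 ± 0.03 in WT astrocytes (SD, n = 4 each). Against this stood 7.94 ± 0.20 and 8.07 ± 0.38 in zQ175 and WT microglia and 8.71 ± 0.31 and 8.53 ± 0.37 in the zQ175 and WT negative fractions. The 14 oligodendrocyte markers also had their highest mean in the sorted astrocytes, at 12.33 ± 0.15 in zQ175 and 12.38 ± 0.06 in WT. They averaged 10.82 ± 0.31 and 10.83 ± 0.16 in zQ175 and WT microglia, and 11.44 ± 0.73 and 11.72 ± 0.34 in the negative fractions. The samples are called astrocytes after their sort, and the part of oligodendrocytes in them was not tested. Slc1a2 read 13.22 to 13.37 in zQ175 and 13.17 to 13.41 in WT samples, and Itgam, the CD11b gene, was dim in all 8 samples, at 3.04 to 3.36 and 3.15 to 3.32. Y-linked genes averaged 9.16 to 9.66 in the zQ175 pools and 9.22 to 9.47 in the WT pools. Xist read 6.80 in zQ175 sample 26, 4.03 to 5.31 in the other zQ175 samples and 4.26 to 5.11 in the WT samples.

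The edited gene itself was read first. Htt was at 8.55, 8.14, 7.72 and 7.78 in zQ175 astrocytes, against 8.59, 8.32, 8.20 and 8.84 in WT astrocytes. The groups overlapped, and the log2 fold change of -0.44 ± 0.20 (SE) was not called (adjusted p = 0.665). Its 2 other tested probe sets gave -0.41 and -0.34. The other zQ175 comparisons were also negative and not called. They gave -0.5 ± 0.2 in astrocytes at 12 months, and -0.44 ± 0.26 in microglia and -0.41 ± 0.26 in the negative fraction at 6 months. An mRNA level does not show the length of the repeat, so Htt does not check the genotype labels.

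At 6 months 47 of the 12380 genes tested differed between zQ175 and WT astrocytes at an adjusted p below 0.05 (limma, 0.38% of the genes tested). Nearly all of them were higher in zQ175: 46 rose (0.372%) and 1 fell (0.00808%). Of the 47, 27 differed by more than 2-fold and 4 rose by more than 4-fold. These 4 were Tnfrsf13c, the receptor gene for the B cell survival factor BAFF (log2 fold change 2.26 ± 0.25), Abhd1, a gene of the alpha/beta hydrolase family (2.23 ± 0.15), the noncoding host gene Snhg11 (2.12 ± 0.37) and Tmem132c, a membrane protein gene (2.02 ± 0.15). The folds of Snhg11 and Tmem132c rest on dim WT signals, with means of 4.77 and 4.54, below the brightness limit used for testing (5.44). The median log2 fold change of the 46 was 1.08, beside -0.009 over all genes tested. In each of the 47 the samples of the genotypes did not overlap. Over all genes tested, 458 (3.7%) had every zQ175 sample above every WT sample and 176 (1.42%) had every one below. At an unadjusted p below 0.05 there were 884 genes, 556 higher and 328 lower. In bulk samples a gene at a higher level per cell and a larger share of cells that express it cannot be told apart.

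**Figure D1:**
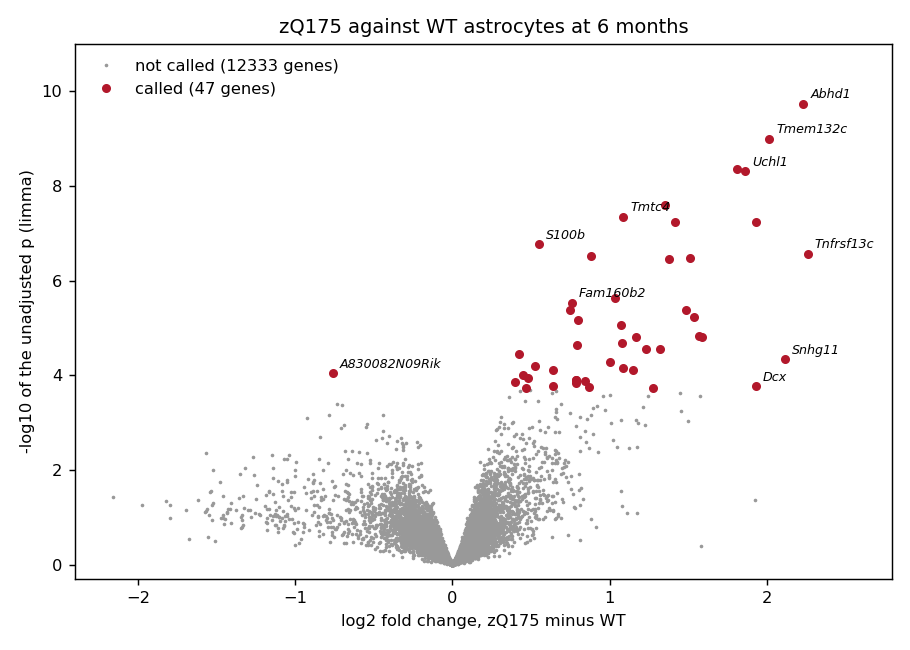
Log2 fold change (zQ175 minus WT, x axis) against -log10 of the unadjusted limma p (y axis) for the 12380 genes tested in astrocytes at 6 months, 1 point per gene. Of the 47 called genes, drawn larger, 46 lie right of 0, and A830082N09Rik alone lies left of it.

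Markers of another cell type varied between the same samples. Endothelial and mural markers averaged 6.79, 6.43, 8.27 and 7.89 in the zQ175 samples, against 8.41, 8.29, 7.39 and 9.26 in the WT samples. Samples 26 and 27 were low, and the genotypes overlapped. Of 18 tested members 5 were lower at an unadjusted p below 0.05 and 0 were called, with a median log2 fold change of -1.16. A fit that took this mean as a covariate, which was added with the values known, called 28 genes, 26 higher and 2 lower, and 25 of them were among the 47. The 22 calls lost with it were those of Acy3, Lgals2, Cdh6, Cldn14, Lcp1, Haghl, Nalcn, Dusp15, Enpp6, A830082N09Rik, Zswim7, Spata13, Naaladl2, Epha10, Dmrtc1a, Scg5, Faah, Pak3, Dcx, Cacna2d3, Casq1 and Ppp1r3f. Their log2 fold changes kept their sign and were 73.4% (Casq1) to 109% (Zswim7) of those without the covariate, with adjusted p of 0.0514 (Acy3) to 0.337 (Cacna2d3). Without any 1 of the 8 samples the count was between 25 (without zQ175 sample 27) and 45 (without WT sample 24). It was 30 without WT sample 22, 29 without zQ175 sample 26 and 27 without zQ175 sample 28. Of the 47 genes 22 kept their call whichever sample was left out, 19 kept it in 3 or fewer of these 8 fits, and 5 of those (Casq1, Faah, Pak3, Ppp1r3f and Spata13) kept it in 0 of them. C1qb, a complement gene of microglia, stood out in 1 sample: it read 11.66 in zQ175 sample 26, 6.63 to 7.79 in the other zQ175 samples and 4.83 to 7.41 in the WT samples, and its part in the result was not tested.

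**Figure D2:**
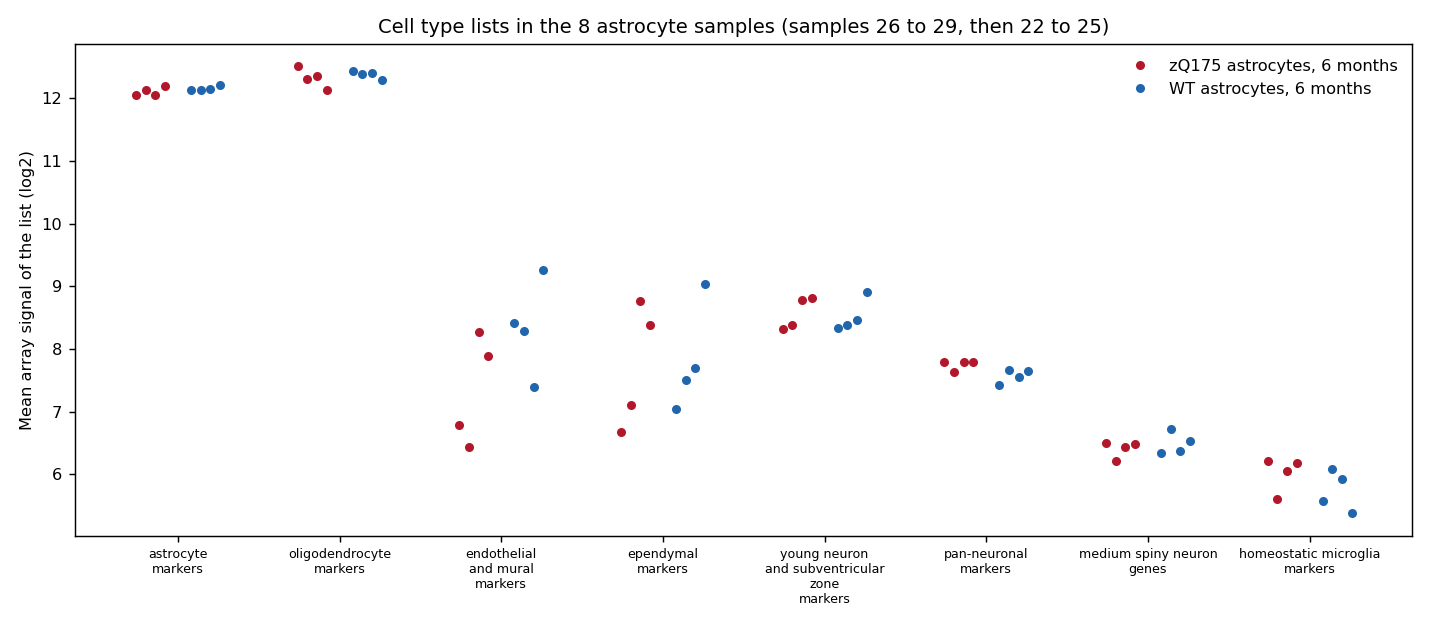
Mean log2 array signal of 8 cell type lists (y axis) in each of the 4 zQ175 and 4 WT astrocyte samples at 6 months, 1 point per sample in the order of the sample numbers. Astrocyte and oligodendrocyte means lie near 12 in all 8 samples, while endothelial and ependymal means spread over more than 1 log2 unit within each genotype.

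A promoter of 300 bases (250 before the start of the gene and 50 after it) was given by RefSeq (GRCm38.p6) for 36 of the 46 genes that rose and for 10009 of the genes tested. Of the 36 promoters, 15 (41.7%) had an observed over expected CpG ratio above 0.6, beside 72.2% of all 10009, and the medians were 0.53 and 0.76. Genes at low levels had fewer CpG-rich promoters in general: among the 1942 tested genes whose WT level did not exceed the median of the 36 (7.38), the share was 51.2%. Of the letter motifs searched on both strands, the GC box GGGCGG was in 55.6% of the 36 and 64.7% of all promoters, CCAAT in 27.8% and 38.4%, and TATAAA in 13.9% and 6.88%. The shares for TGACGTCA were 5.56% and 3.23%, for CACGTG 2.78% and 10.3%, for GAANNTTC 2.78% and 5.4%, and for TTCAGCACC 0% and 0.35%. GGGCGG and its reverse can overlap themselves in a run. With so few genes, 1 promoter more or less moves a share by several percentage points, and no share was tested.

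The sequences of 5 of these promoters are given because their genes carry the results that follow: a deubiquitinase, a receptor, the astrocyte gene S100b, and Tmtc4 and Nalcn, which lie side by side on chromosome 14 and rose together. Capitals mark matches, on either strand, of the motifs just named, and each sequence runs 5′ to 3′ along its gene. Uchl1 is at chr5:66675871-66676170, plus strand, Tnfrsf13c at chr15:82224331-82224630, minus strand, S100b at chr10:76253586-76253885, plus strand, Tmtc4 at chr14:122983234-122983533, minus strand and Nalcn at chr14:123627095-123627394, minus strand. The CpG ratios were 0.47 for Uchl1, 0.43 for Tnfrsf13c, 0.14 for S100b, 0.94 for Tmtc4 and 0.17 for Nalcn, whose promoter held none of the motifs.
Uchl1: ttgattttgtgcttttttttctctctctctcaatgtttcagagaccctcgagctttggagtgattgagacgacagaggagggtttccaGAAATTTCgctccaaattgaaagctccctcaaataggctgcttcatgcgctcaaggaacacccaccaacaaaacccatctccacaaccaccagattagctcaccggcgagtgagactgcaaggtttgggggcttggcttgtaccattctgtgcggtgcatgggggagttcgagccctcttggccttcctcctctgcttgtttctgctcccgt
Tnfrsf13c: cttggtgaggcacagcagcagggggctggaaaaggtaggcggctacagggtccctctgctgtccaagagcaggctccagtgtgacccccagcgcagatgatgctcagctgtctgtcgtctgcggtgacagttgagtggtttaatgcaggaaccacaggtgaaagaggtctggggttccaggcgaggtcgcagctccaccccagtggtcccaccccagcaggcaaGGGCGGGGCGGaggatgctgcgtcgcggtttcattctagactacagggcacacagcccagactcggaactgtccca
S100b: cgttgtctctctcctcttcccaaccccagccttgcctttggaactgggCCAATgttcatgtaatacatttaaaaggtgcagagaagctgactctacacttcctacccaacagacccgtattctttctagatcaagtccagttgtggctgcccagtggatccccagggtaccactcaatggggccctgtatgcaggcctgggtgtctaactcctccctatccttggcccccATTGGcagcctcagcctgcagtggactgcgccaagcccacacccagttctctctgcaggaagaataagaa
Tmtc4: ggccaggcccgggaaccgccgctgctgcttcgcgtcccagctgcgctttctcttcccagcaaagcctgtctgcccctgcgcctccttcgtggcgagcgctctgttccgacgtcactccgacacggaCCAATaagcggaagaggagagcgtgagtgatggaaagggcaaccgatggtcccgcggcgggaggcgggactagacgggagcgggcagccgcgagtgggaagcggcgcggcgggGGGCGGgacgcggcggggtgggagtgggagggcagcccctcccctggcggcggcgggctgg
Nalcn: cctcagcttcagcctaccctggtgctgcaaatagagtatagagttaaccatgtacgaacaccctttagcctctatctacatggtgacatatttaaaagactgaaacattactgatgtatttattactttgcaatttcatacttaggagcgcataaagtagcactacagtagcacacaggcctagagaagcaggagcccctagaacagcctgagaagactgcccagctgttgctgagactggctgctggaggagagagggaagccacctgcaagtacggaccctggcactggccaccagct

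The genes that rose are described by their known roles, a grouping made after their values were seen. Several are best known from neurons. Uchl1, a deubiquitinase that is abundant in neurons, was at 10.51, 10.45, 10.59 and 10.43 in zQ175 astrocytes, against 8.24, 8.69, 8.67 and 8.93 in WT astrocytes. The gap between the genotypes was wider than the range within either, and the log2 fold change was 1.86 ± 0.15 (adjusted p = 1.53e-05). Insm1, a zinc finger factor of neuronal and endocrine progenitors, was at 7.57, 7.31, 7.52 and 7.38 in zQ175, against 5.69, 5.93, 6.05 and 6.46 in WT (1.42 ± 0.14, adjusted p = 8.98e-05). Ralyl, which encodes an RNA-binding protein, rose by 1.93 ± 0.19 (8.57 ± 0.18 in zQ175 and 6.64 ± 0.31 in WT, SD, n = 4 each). Snhg11 and Dcx varied more. Snhg11 was at 6.52, 7.41, 7.77 and 5.84 in zQ175, against 4.52, 4.46, 4.40 and 5.71 in WT, so zQ175 sample 29 and WT sample 25 nearly met. Dcx, a microtubule gene of migrating young neurons, was at 6.44, 7.33, 7.34 and 7.44 in zQ175, against 5.88, 4.02, 5.89 and 5.04 in WT (1.93 ± 0.39, adjusted p = 0.0479). Snhg11 and Dcx each kept the call in 3 of the 8 fits that left out 1 sample.

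Nalcn, the gene of the sodium leak channel, was at 10.24, 9.86, 10.22 and 9.91 in zQ175 astrocytes, against 8.83, 9.08, 9.24 and 8.75 in WT astrocytes (log2 fold change 1.08 ± 0.20). Cacna2d3, an auxiliary subunit of voltage-gated calcium channels, rose by 0.87 ± 0.17. Pak3, a kinase gene of the actin cytoskeleton, rose by 0.64 ± 0.13 and Scg5, whose product assists a prohormone convertase, by 0.40 ± 0.08, the smallest rise of the 46. In the 8 fits that left out 1 sample the call was kept in 1 for Nalcn, 2 for Cacna2d3, 0 for Pak3 and 1 for Scg5. Beside these genes stand the cell type lists, where 0.38% of all genes tested were called. Of 22 pan-neuronal markers 2 were called (Uchl1 and Snhg11, both higher), with a median of 0.05. Of 7 young neuron and subventricular zone markers 1 was called (Dcx), with a median of 0.01. The mean of the pan-neuronal list was 7.79, 7.63, 7.79 and 7.79 in zQ175, against 7.42 to 7.67 in WT. The 13 tested medium spiny neuron genes, those of the main striatal neuron, had a median of 0.05 and 0 calls, as most lists of that size would. Means over the 21 on the array were 6.22 to 6.50 in zQ175 and 6.34 to 6.73 in WT.

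Of the 26 tested astrocyte markers, S100b alone was called, beside 0.38% of all genes tested. It rose by a small and very even amount. S100b, which encodes a calcium-binding protein that astrocytes also secrete, was at 11.63, 11.73, 11.74 and 11.66 in zQ175, against 11.12, 11.19, 11.12 and 11.13 in WT. All zQ175 samples were at least 0.45 log2 units above all WT samples, and the log2 fold change was 0.55 ± 0.06 (adjusted p = 0.000231). Its other probe set had a log2 fold change of 0.51. Other calcium-binding and secreted products rose too. Smoc1, a secreted matrix protein gene, rose by 0.80 ± 0.12. Fibin, a gene of a secreted protein first described in fish fin buds, was at 8.19, 7.96, 8.16 and 8.03 in zQ175, against 5.77, 6.77, 6.25 and 6.31 in WT (1.81 ± 0.15). Il17b, a cytokine gene of the interleukin-17 family, rose by 1.35 ± 0.13, with WT samples at 4.30 to 4.95, below the limit of brightness used for testing (5.44). Casq1, calsequestrin of the sarcoplasmic reticulum, had 1.28 ± 0.26, with its call kept in 0 of the 8 fits that left out 1 sample.

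**Figure D3:**
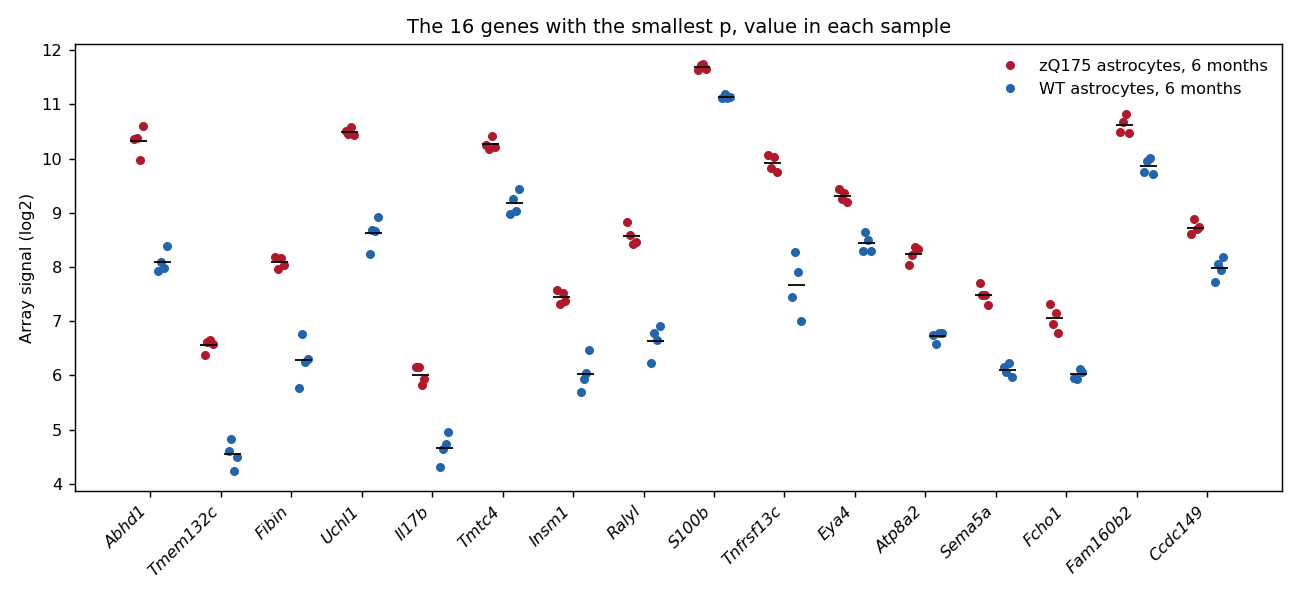
Log2 array signal (y axis) of the 16 genes with the smallest p in each of the 4 zQ175 samples (left of each pair) and 4 WT samples (right of each pair), with a bar at each group mean. The genotypes do not overlap in any of the 16, and S100b has the narrowest spread, at 11.63 to 11.74 in zQ175 and 11.12 to 11.19 in WT.

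Among receptors and guidance genes, Tnfrsf13c was at 10.07, 9.82, 10.03 and 9.76 in zQ175 astrocytes, against 7.45, 8.27, 7.91 and 7.01 in WT astrocytes (adjusted p = 0.000333). The zQ175 samples were even, and the WT samples spread over more than 1 log2 unit. Sema5a, an axon guidance semaphorin, rose by 1.38 ± 0.16, and its other tested probe set gave 1.37. Epha10, an Eph receptor gene, rose by 0.79 ± 0.15, and its WT samples were all below the brightness limit. In signalling, the kinase gene Map3k21 rose by 1.57 ± 0.25, with WT samples at 4.96 to 5.42, also all below the brightness limit. Inka2, an inhibitor of a p21-activated kinase, rose by 1.48 ± 0.21. The transcriptional coactivator and phosphatase gene Eya4 rose by 0.88 ± 0.10 and the dual-specificity phosphatase gene Dusp15 by 0.64 ± 0.12. Of the 8 fits that left out 1 sample, 1 kept the call of Epha10 and 2 kept that of Dusp15.

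Enzyme and transport genes formed another group. Abhd1 had the smallest p of all genes and was at 10.36, 10.38, 9.98 and 10.60 in zQ175 astrocytes, against 7.93, 8.10, 7.98 and 8.38 in WT astrocytes (adjusted p = 2.27e-06). The lowest zQ175 sample was above the highest WT sample by 1.60. Atp8a2, a phospholipid flippase gene, rose by 1.51 ± 0.17, Acy3, an aminoacylase gene, by 1.59 ± 0.25, and Faah, whose product degrades the endocannabinoid anandamide, by 0.79 ± 0.15, although the call of Faah was kept in 0 of the 8 fits that left out 1 sample. Enpp6, a choline phosphodiesterase gene known from newly forming oligodendrocytes, was at 10.52, 10.32, 10.26 and 10.12 in zQ175, against 8.79, 9.15, 9.44 and 9.24 in WT (1.15 ± 0.21). The call of Enpp6 was kept in 1 of the 8 fits that left out 1 sample. Beside Enpp6, 14 oligodendrocyte markers had 0 calls and a median of -0.04 (means of 12.14 to 12.51 in zQ175 and 12.29 to 12.43 in WT). The 8 precursor markers had 0 calls and a median of -0.04. Over all genes tested 0.38% were called, and at that share lists of these sizes would mostly hold none.

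Membrane, adhesion and trafficking genes were the last group. Tmem132c was at 6.38, 6.61, 6.66 and 6.58 in zQ175, against 4.61, 4.82, 4.24 and 4.49 in WT. All WT samples were below the limit of 5.44, so it was tested on account of its zQ175 level, and its fold rests on dim WT signals. Tmtc4, which encodes a mannosyltransferase of the endoplasmic reticulum that modifies cadherins, was at 10.25, 10.17, 10.42 and 10.21 in zQ175, against 8.97, 9.26, 9.04 and 9.43 in WT (1.09 ± 0.11, adjusted p = 8.98e-05). Its other tested probe set gave only 0.22, and with the mean of its probe sets the adjusted p was 0.121. Cdh6, a cadherin gene, rose by 0.79 ± 0.13, Cldn14, a claudin of tight junctions, by 1.23 ± 0.21, and Fcho1, which starts clathrin-coated pits, by 1.03 ± 0.14. Lcp1, an actin-bundling gene of leukocytes, was at 10.85, 10.60, 10.59 and 10.38 in zQ175, against 9.31, 9.82, 10.01 and 9.27 in WT (1.0 ± 0.18). The call of Lcp1 was kept in 3 of the 8 fits that left out 1 sample. Beside Lcp1, 8 tested homeostatic microglia markers had a median of 0.33 and 0 calls, where 0.38% of all genes tested were called. Means over the 19 of these markers on the array, most of them too dim to be tested, were 6.22, 5.60, 6.05 and 6.18 in zQ175, against 5.38 to 6.08 in WT. The part of other cells in these rises was not tested. The 1 gene that fell, the unannotated A830082N09Rik, was at 5.47, 5.53, 5.73 and 5.36 in zQ175, against 6.42, 6.18, 6.08 and 6.45 in WT (-0.76 ± 0.14), and its other probe set gave -0.07. Its call was kept in 2 of the 8 fits that left out 1 sample.

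The 46 genes were not uniformly astrocyte genes by their WT level at 6 months. For 20 of them WT astrocytes had the highest level of the 3 fractions, for 19 the negative fraction had it and for 7 the microglia. The median log2 fold change in astrocytes was 0.82 in the first set, 1.32 in the second and 1.0 in the third. Insm1, for example, was at 6.03 ± 0.32 in WT astrocytes and 9.89 ± 0.22 in WT negative cells (SD, n = 4 each), and Dcx at 5.21 ± 0.88 and 12.20 ± 0.30. S100b ran the other way, at 11.14 ± 0.03 in WT astrocytes and 8.40 ± 0.85 in WT negative cells. For 12 of the 46 the WT astrocyte level was above 9, and for 7 every WT astrocyte sample was below the brightness limit of 5.44. Of the called genes 19 had another probe set that was tested, 22 in all. Of these 22, 3 were called in the same direction (Inka2, Minar2 and Lcp1), and 1, of Haghl, had the opposite sign at -0.01.

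The same genes were then read in zQ175 astrocytes at 12 months, which share no sample with the 6-month groups but share the estimate of spread. Of the 46 genes, 43 (93.5%) were called higher at 12 months too, where 536 genes were (4.33% of those tested), and 1, Fam160b2, was called lower (1.58% of those tested were). The 43 make up 8.02% of the 536. The median log2 fold change of the 46 was 1.08 at 6 months and 1.61 at 12 months, and 38 of them had the larger value at 12 months. Tnfrsf13c had 2.26 at 6 and 3.89 at 12 months, and Snhg11 2.12 and 3.88. Abhd1 was nearly equal at both ages, at 2.23 and 2.22, and Dcx had 1.93 and 1.62. The difference of the effects itself was called for 1 gene of 12380 (0.00808%), while 562 had an unadjusted p below 0.05. That gene was Fam160b2, whose product belongs to an adaptor complex family of dynein cargo transport. It was at 10.50, 10.68, 10.82 and 10.47 in zQ175 astrocytes at 6 months, against 9.75, 9.95, 10.01 and 9.72 in WT. At 12 months it was at 9.03, 9.18, 8.80 and 9.13 in zQ175, against 9.89, 9.72, 9.81 and 9.85 in WT. The WT levels of both ages overlapped, and the zQ175 samples lay above them at 6 months and below them at 12 months. The 6-month effect minus the 12-month effect was 1.54 ± 0.15 (adjusted p = 0.000412), and it was 1.5 with the endothelial and mural mean as a covariate. In a fit of all 37 astrocyte samples the 6-month effect of Fam160b2 was not called (adjusted p = 0.493), and no other probe set could be set beside it.

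**Figure D4:**
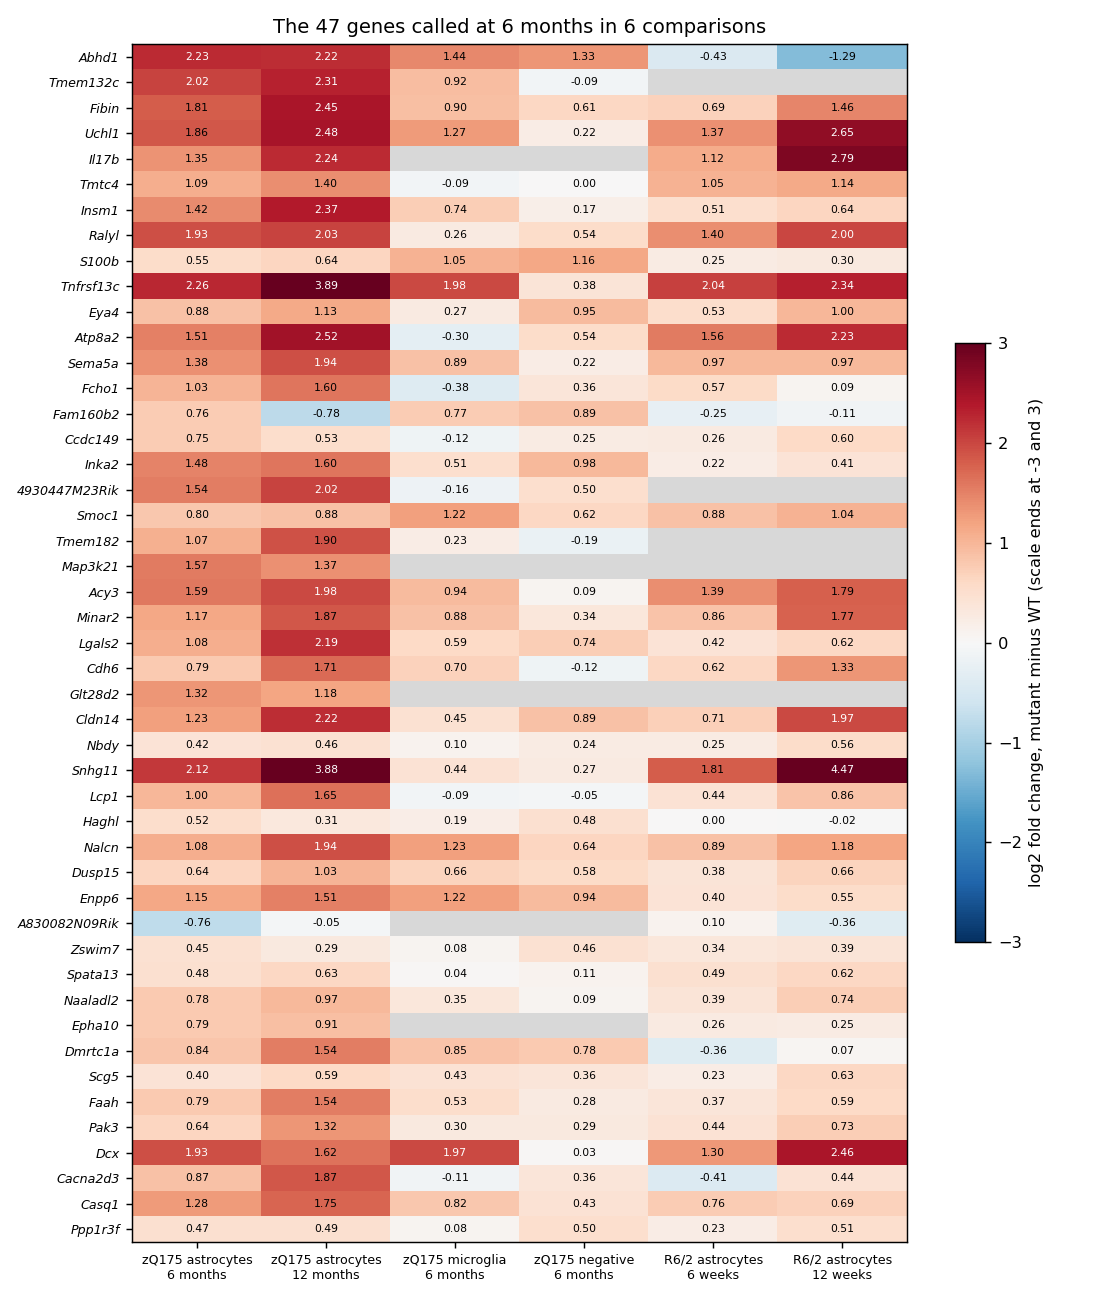
Log2 fold changes (mutant minus WT, colour and printed value) of the 47 genes called in zQ175 astrocytes at 6 months (rows) in 6 comparisons (columns), with grey where a gene was too dim to be tested. Most genes have positive values in the astrocyte columns, while Abhd1 is at -1.29 in R6/2 astrocytes at 12 weeks and Fam160b2 at -0.78 in zQ175 astrocytes at 12 months.

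In the other fractions of 6-month mice the same genes had smaller median values. They were chosen by their call in astrocytes, which favours larger values there, so the medians do not compare the fractions fairly. A fit over the 3 fractions with 4 zQ175 and 4 WT samples each called 19 genes in the astrocytes themselves (0.151% of 12622). Of the 46, 42 were tested there. In microglia 35 had positive values (median 0.52) and 2 were called, Abhd1 (1.44 ± 0.19) and Tnfrsf13c (1.98 ± 0.34), out of 8 genes called higher in all (0.0634%). In the negative fraction 38 had positive values (median 0.37) and 1 was called, Abhd1 (1.33 ± 0.19), out of 2 (0.0158%). Abhd1 was at 9.20, 8.83, 8.78 and 8.62 in zQ175 microglia, against 7.23, 7.20, 7.70 and 7.53 in WT microglia. It was at 7.89, 6.96, 7.58 and 7.12 in zQ175 negative cells, against 6.26, 5.73, 6.22 and 6.00 in WT negative cells. In each of the 3 fractions every zQ175 sample was above every WT sample, which was so for 3 of 11936 genes (0.0251%), beside 1.1% of the genes tested in microglia alone and 1.36% in the negative fraction alone. The other 2 were the cold-inducible RNA-binding gene Cirbp (0.38 ± 0.09, adjusted p = 0.144) and the collectin gene Colec11 (0.44 ± 0.13, adjusted p = 0.305). S100b had larger values in both other fractions (1.05 ± 0.43 and 1.16 ± 0.43), but these were not called and the differences between fractions were not either (adjusted p = 1 for both).

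The effect in astrocytes minus that in microglia was called for 2 of 12622 genes (0.0158%), and 392 had an unadjusted p below 0.05. Tmtc4 had 1.18 ± 0.19 (adjusted p = 0.0334): zQ175 microglia were at 10.65 ± 0.05 and WT microglia at 10.74 ± 0.18. Fcho1 had 1.41 ± 0.24 (adjusted p = 0.0449), with 5.93 ± 0.12 in zQ175 and 6.31 ± 0.08 in WT microglia. The effect in astrocytes minus that in negative cells was called for Tmem132c alone (2.11 ± 0.31, adjusted p = 0.0148, 0.00792%), and 225 genes had a p below 0.05 before adjustment. Tmem132c was at 7.36 ± 0.18 in zQ175 and 7.45 ± 0.15 in WT negative cells. With the mean of each gene's probe sets 0 genes were called against either fraction. A fit with a term for each sample number that the fractions share (the replicate block) also called 0 genes against either. The labels do not say that these numbers mark the same pool. Leaving out 1 sample gave a count of 0 or 1 against microglia (1 when the sample was WT 24, WT 25 or zQ175 26, and 0 for each of the other 5). Against the negative fraction the count was 1 when the number left out was WT 23, zQ175 26 or zQ175 27, and 0 for each of the other 5.

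R6/2 astrocytes offered a comparison in another model, at other ages and with no shared sample. Of the 46 genes 41 were tested there. At 6 weeks 36 had positive values (median 0.49) and 12 were called higher, which is 26.1% of the 46 and 11.9% of the 101 genes called higher in that comparison (0.827% of those tested). They were Uchl1, Il17b, Tmtc4, Ralyl, Tnfrsf13c, Eya4, Atp8a2, Smoc1, Acy3, Minar2, Snhg11 and Nalcn. At 12 weeks 32 were called higher, 69.6% of the 46 and 1.8% of the 1775 called higher in all (14.5% of those tested), and 1, Abhd1, was called lower (14.2% were). Abhd1 was at 9.64 ± 0.70 in R6/2 and 10.07 ± 0.79 in WT astrocytes at 6 weeks (SD, n = 5 each). At 12 weeks it was at 9.80 ± 0.19 in 6 R6/2 samples and 11.09 ± 0.29 in 5 WT samples (-1.29). Its WT level in these younger mice was above that of the WT mice at 6 months (8.10 ± 0.20), and model, colony and age cannot be told apart there. The Y-linked gene Eif2s3y had a log2 fold change of 3.30 ± 1.29 between the R6/2 and WT pools at 12 weeks, which was not called (adjusted p = 0.0609). Adjusting for the mean of the Y-linked genes, 965 genes differed between the zQ175 effect and the R6/2 effect at 12 weeks, against 943 without it. The genes were not all the same, as 810 of the 965 were among the 943.

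The zQ175 effect at 6 months minus the R6/2 effect at 6 weeks was called for 10 of 12270 genes (0.0815%). The difference was positive for 1 (0.00815%) and negative for 9 (0.0733%). Before adjustment 665 had a p below 0.05. Abhd1 was the 1 gene with a positive difference (2.67 ± 0.40, adjusted p = 0.00184). The count was 6 without WT sample 25, 2 with the mean of each gene's probe sets and 15 after adjusting for the Y-linked mean. Positive differences were called for 5 genes in that last fit and for 3 without WT sample 23. The other 9 had lower log2 fold changes in zQ175, given first, than in R6/2. Among them were the interferon-induced genes Usp18 (0.36 and 2.32) and Oasl2 (-0.05 and 2.58) and the ubiquitin ligase gene Dtx3l (-0.32 and 0.68). Further ones were the surface protein gene Cd109 (0.07 and 2.21), the RNA-binding gene Igf2bp3 (0.09 and 1.76) and the peptide hormone gene Adm (-0.66 and 2.64). The rest were the transcription factor genes Ebf3 (-0.26 and 1.17) and Foxf1 (-0.95 and 2.99), and the endocytic gene Eps15l1 (-0.44 and 0.26). Against R6/2 at 12 weeks 943 genes differed (7.69%), 509 with a positive difference (4.15%) and 434 with a negative one (3.54%). These were 581 and 317 with arrays centred on their median and 555 and 326 with the mean of each gene's probe sets. Without WT sample 22 the balance turned, at 332 positive and 374 negative, and the total was 640 without zQ175 sample 29. Among the 47 genes 6 were called there. The zQ175 effect was larger for Abhd1 (by 3.52 ± 0.39), Inka2 (1.07 ± 0.34) and Haghl (0.54 ± 0.12), and the difference was negative for Snhg11 (-2.35 ± 0.45), Il17b (-1.44 ± 0.22) and Uchl1 (-0.78 ± 0.25). In that difference 15 of 17 cholesterol synthesis genes were called positive and 0 negative (median 0.92, beside 0 over all genes tested). Msmo1 was at -0.03 in zQ175 and -1.21 in R6/2, and Idi1 at -0.08 and -1.45, so their larger change was the fall in R6/2. Of 22 interferon-stimulated genes 16 were called negative and 0 positive (median -1.4).

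Most gene lists held no called gene at 6 months. Over all genes tested 0.38% were called, and at that share most lists of this size would hold none. Of 17 cholesterol synthesis genes 0 were called and the median log2 fold change was -0.02 (range -0.16 to 0.18), beside -0.009 over all genes tested. The 21 genes of lipid transport and fatty acid metabolism had 0 calls and a median of -0.01. The 16 genes of glutamate, GABA and potassium handling had 0 calls and a median of -0.09. The metabotropic glutamate receptor gene Grm3 had the smallest p among them (-0.32 ± 0.12, adjusted p = 0.57), with zQ175 samples at 12.52 to 12.71 and WT samples at 12.81 and above. Of 25 reactive astrocyte genes 0 were called, and the median was -0.24. The acute-phase gene Serpina3n had 0.41 ± 0.16 and the receptor gene S1pr3 -1.14 ± 0.38, at adjusted p = 0.564 and 0.425. With the endothelial and mural mean as a covariate the median of this list was 0.10.

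The stress and immune lists had no call either, beside 0.38% called over all genes tested. Interferon-stimulated genes (22 tested) had a median of 0.04, cytokine and NF-kB genes (10) -0.18 and complement genes (4) -0.24. Among heat shock and unfolded protein response genes (22, median -0.09), the chaperone gene Hspa1b had -0.84 ± 0.22 (adjusted p = 0.216). The immediate early genes (17) had a median of -0.41, which was -0.02 with the endothelial and mural mean as a covariate. Oxidative phosphorylation genes (17) had a median of 0.03, glycolysis genes (13) -0.02 and clock genes (15) -0.08. Among 11 ubiquitin and deubiquitinase genes Uchl1 alone was called, and the median was 0.10. Homeobox regulators (9) had 0 calls and a median of -0.06, proliferation genes (9) -0.16, interneuron genes (7) 0.01, ependymal markers (7) -0.14, fibroblast markers (7) -0.62, border macrophage and blood cell markers (3) -0.78 and Y-linked genes (3) 0.02.

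**Figure D5:**
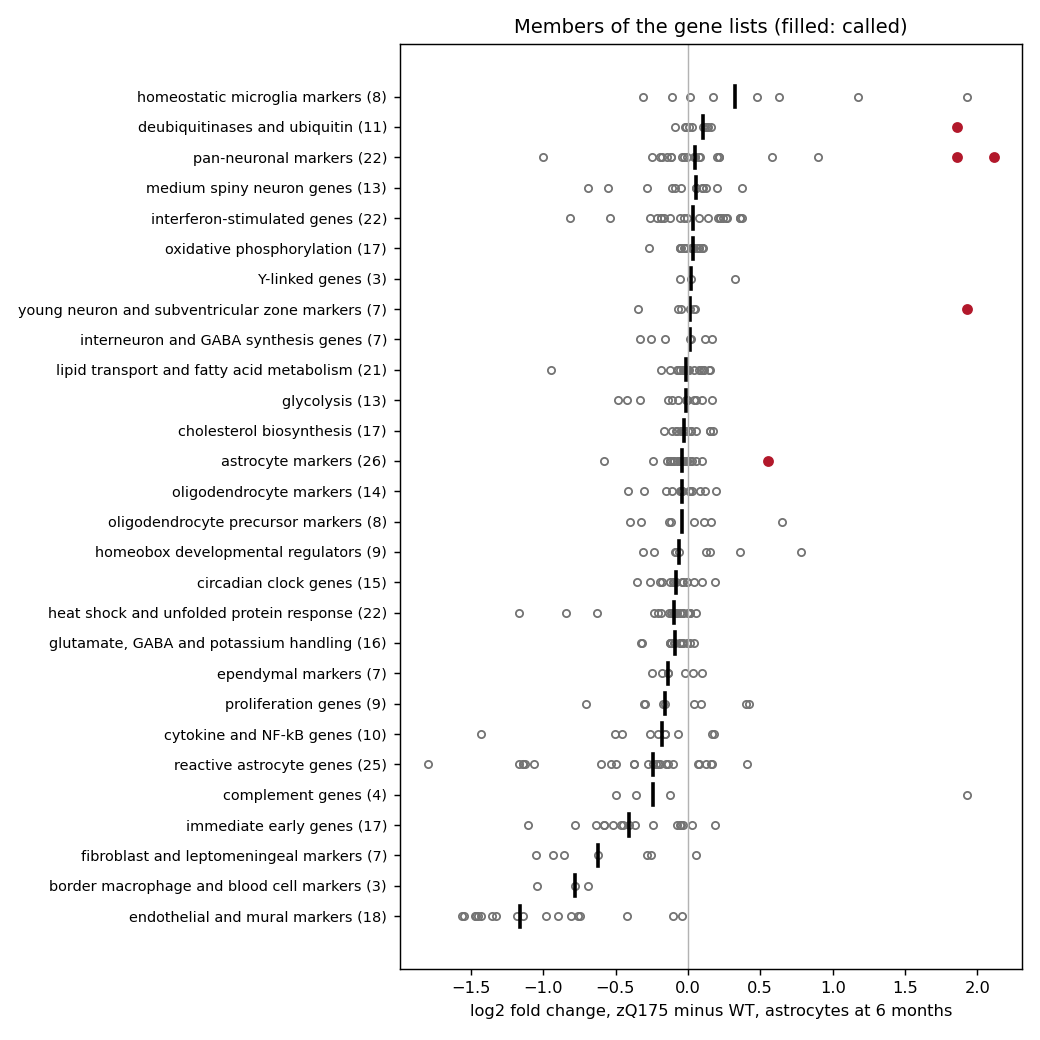
Log2 fold change (zQ175 minus WT, x axis) of each tested member of the gene lists, with the number tested in brackets, a bar at the median and filled points for called genes. Called members occur in the ubiquitin, pan-neuronal, young neuron and astrocyte lists, all right of 0, and the endothelial and mural list has the lowest median, -1.16.

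By position (RefSeq, GRCm38.p6), 7 of the 47 genes were on chromosome 14 (14.9%, beside 3.42% of the genes tested) and 5 on the X chromosome (10.6% and 3.1%). The 7 were Tmtc4, Nalcn, Atp8a2, Fam160b2, Lcp1, Spata13 and Cacna2d3. Among the tested genes next to a called gene, 94 in all, 4 were called, beside 0.38% of all genes tested. These 4 form the pairs Tmtc4 with Nalcn on chromosome 14 and Pak3 with Dcx on the X chromosome, each counted from both sides. The median log2 fold change of the neighbours was 0.04. Chromosome 5 carries Htt and 4 of the 47 genes (8.51%, beside 6.4% of the genes tested). Of the 20 tested genes around Htt, 10 on each side, 0 were called and the values were between -0.29 and 0.20. Between Htt and the nearest called genes lay 54 tested genes (Abhd1) and 55 (Ccdc149), then 88 (Uchl1). The genes next to Abhd1, Cgref1 and Preb, had 0.09 and -0.17.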

How the data were processed

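Microarray expression was measured by the submitters in sorted striatal cells, with 45101 probe sets on 111 arrays. The deposited values are on a log2 scale. The submitters' processing notes name affy, RMA and limma, with no version, and no scan batch was given. Per the deposited platform annotation, 34958 probe sets have 1 gene symbol, 932 several and 9211 none, and 34754 matched the RefSeq table (GRCm38.p6), which changed 0 symbols. Each gene was read from its single-symbol probe set with the highest mean over all arrays (18194 genes), and genes below the 40th percentile of probe set means (5.44) were not tested.

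Group means were fitted with limma 3.58.1 (R 4.3.3) over the 16 zQ175 and WT astrocyte samples at 6 and 12 months, which share 1 estimate of the spread (12 residual degrees of freedom). After Benjamini-Hochberg adjustment, an adjusted p below 0.05 made a call. Differences of effects were contrasts in joint fits. The text names the called genes, the next 10 by p and list members by smallest p. The 47 called genes and all lists were chosen with earlier results of these data known. The fit was tested on simulated data. The number of arrays limits the precision. Figures were drawn with matplotlib 3.10.9.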

Additional observations from a re-analysis of the deposited data

Results flagged for a closer look

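Dixon's test found a sample far from the other 3 of its group in 14 of 170 groups of 4 (8.24%), where chance gives about 1 in 20. Among WT samples these were sample 23 for S100b (11.19), sample 22 for Cldn14 (6.68), Nbdy (10.61), Pak3 (7.93) and Colec11 (5.56), and sample 25 for Snhg11 (5.71). Among zQ175 samples they were sample 26 for Nbdy (11) and Dcx (6.44), sample 28 for Dmrtc1a (7.43) and sample 29 for Dusp15 (10.95). Of the list means, zQ175 sample 27 stood apart for the pan-neuronal markers (7.63), and WT sample 25 for the astrocyte markers (12.21), the interferon-stimulated genes (8.15) and oxidative phosphorylation (12.01).

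The zQ175 effect in 6-month astrocytes differed, by a test of the difference itself in limma, from that at 12 months for Fam160b2 (1.54). It differed from that in microglia for Tmtc4 (1.18) and Fcho1 (1.41) and from that in the negative fraction for Tmem132c (2.11). It exceeded the R6/2 effect at 6 weeks for Abhd1 (2.67). The same difference was negative for Ebf3 (-1.43), Usp18 (-1.96), Adm (-3.30), Cd109 (-2.14), Igf2bp3 (-1.66), Dtx3l (-1.0), Foxf1 (-3.95), Oasl2 (-2.64) and Eps15l1 (-0.70). Against the R6/2 effect at 12 weeks it was negative for the leading genes Kazald1 (-3.46), Gng3 (-2.31), Igf2bp3 (-2.98), Gbp6 (-2.69), Fxyd6 (-2.97), Usp18 (-2.89) and Cd109 (-2.99), and positive for Msmo1 (1.18), Idi1 (1.38) and Abhd1 (3.52). Among the other genes called in zQ175 astrocytes at 6 months it was negative for Uchl1 (-0.78), Il17b (-1.44) and Snhg11 (-2.35) and positive for Inka2 (1.07) and Haghl (0.54).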

How the results depend on the processing

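The count of 47 genes became 29 with a filter at the 60th percentile, 92 with array weights (82 higher, 10 lower), 28 with the endothelial and mural mean as a covariate (added after seeing the data), and 25 to 45 when 1 of the 8 samples was left out. In the other alternatives it stayed within 1.5 times, and 0 genes reversed in any, but the genes called were not all the same. A fit of only the 8 samples at 6 months called 35 genes, 28 of them among the 47. Without the filter on dim genes 35 of 42 were among the 47, and in the fit of all 37 astrocyte samples 36 of 51. With the 16 arrays quantile normalized again it was 43 of 47. Under every alternative in which they were tested, 19 genes kept their call, among them Abhd1, Tmem132c, Uchl1, S100b and Tnfrsf13c. Fam160b2 lost it in the fit of all 37 astrocyte samples (adjusted p = 0.493).

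The difference from 12 months was called for 3 genes without the filter and for 2 without WT 12-month sample 35. The difference from microglia was called for 0 genes with the mean of probe sets, 1 with centred arrays and 0 with the replicate block. It was called for 0 to 1 genes when 1 sample number was left out of all 3 fractions at once. The difference from the negative fraction was called for 3 genes without the filter, 0 with the mean of probe sets and 0 with the replicate block. Leaving 1 sample number out of all 3 fractions gave 0 to 1 genes there. The difference from R6/2 at 6 weeks was called for 2 genes with the mean of probe sets and 6 to 10 when 1 sample was left out. That from R6/2 at 12 weeks was called for 640 to 951 genes when 1 sample was left out. The causes were not tested. Under the replicate block Tmtc4, Fcho1 and Tmem132c thus lost their calls. The labels do not say that the numbers shared by the fractions mark the same pool. Deviations of same-numbered samples correlated above 0.1 in 12 of 24 pairs (-0.169 to 0.372). In 14 of the 24 the sample of the same number was the best match among the 4 samples of that genotype in the other fraction. A shared source is possible, and the labels do not settle it. For the zQ175 effect itself, no paired analysis was possible because the zQ175 and WT samples share no replicate numbers.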

Other observations

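The 10 genes next in order of p after the called ones were all higher in zQ175 astrocytes, at adjusted p between 0.0538 and 0.0615 (limma). Their samples did not overlap, which a choice by smallest p favours. Over all genes tested 3.7% had every zQ175 sample above every WT sample. The largest value was that of Pcdh15, a protocadherin gene, which was at 7.59, 7.94, 7.32 and 6.74 in zQ175, against 5.59, 6.31, 5.83 and 5.55 in WT (log2 fold change 1.58 ± 0.33). The homeobox gene Mkx had 1.45 ± 0.30 and Slc34a3, a sodium phosphate transporter gene, 1.25 ± 0.26. Cadps, a gene of dense-core vesicle release, was at 9.28, 8.86, 8.82 and 8.58 in zQ175, against 7.90, 8.25, 8.04 and 7.33 in WT (1.0 ± 0.21). Nkx2-2, a transcription factor gene of the oligodendrocyte lineage, had the smallest value (0.36 ± 0.08). The others were Gnb4 (0.49), Gpr85 (0.43), C2cd4c (0.66), Thsd7a (0.64) and Nav3 (0.96). At 12 months all 10 were called higher, where 4.33% of the genes tested were, in the same fit with a shared estimate of spread.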
